A study of Mus musculus with 93 samples.

Results

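Chamber myocardium genes and connexin genes were followed in sorted cells of the heart fields. The 7 genes are Nppa, Nppb, Ankrd1 and Smpx, which mark working chamber myocardium, and the gap junction genes Gja1, Gja5 and Gjc1. They were taken by symbol from the 24514 genes of a count table, and all 7 were found in it. Mouse embryos and spheroids of an embryonic stem cell (ESC) line carried Hcn4-GFP, Tbx1-Cre and Ai9, so that every group shared these 3 alleles. GFP reports Hcn4, a pacemaker channel gene active in the first heart field (FHF), and GFP+ cells were sorted for it. RFP comes from the Ai9 reporter, which Tbx1-Cre switches on for good, so that RFP+ cells are Tbx1-expressing cells and all their descendants in the second heart field (SHF), and not only cells with Tbx1 at the time of sorting. The ESC line was derived from blastocysts of the same cross. Hcn4 had counts in all 5 in vivo GFP+ wells and 37 of 38 in vitro GFP+ wells, against 1 of 4 and 18 of 46 RFP+ wells. Tbx1 had counts in 3 of 4 in vivo and 41 of 46 in vitro RFP+ wells, against 0 of 5 and 2 of 38 GFP+ wells.

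The 93 libraries fell into 4 groups: 5 in vivo GFP+ and 4 in vivo RFP+ wells from embryos, and 38 in vitro GFP+ and 46 in vitro RFP+ wells from spheroids at day 5.5. The study induced its spheroids with Activin A, Bmp4 and Wnt proteins, alone or combined. Its methods do not say which of these the sequenced spheroids received. The stage of the embryos is given as E7.75 in the protocol and as E8.5 in the sample titles. Each well held 10 sorted cells, and no source used here ties wells to embryos or differentiations, so p-values measure only the spread between wells. Because a well is a pool, fewer cells expressing a gene and less RNA per cell cannot be told apart. Depth ranged from 712732 to 2525460 counted reads in vivo and from 445071 to 5658882 in vitro, apart from 1 in vitro GFP+ well (C9) with 6288 reads. The in vivo GFP+ wells had counts of 6189 to 8302 genes each, against 10263 to 13052 in the in vivo RFP+ wells, 12837 to 14671 in the in vitro GFP+ wells other than C9 and 11434 to 13880 in the in vitro RFP+ wells. A gene without counts in an in vivo GFP+ well is therefore one not detected there, and the part of this smaller number of genes in the empty wells described below was not tested. Cardiomyocyte markers (11 genes) summed to 18936 to 55059 CPM (counts scaled to a common library size, here with the TMM factors of edgeR) in the in vivo GFP+ wells, 1245 to 2339 in the in vivo RFP+ wells, 28.2 to 1425 in the in vitro GFP+ wells other than C9 and 14.6 to 144 in the in vitro RFP+ wells, where the medians of the 2 in vitro populations were 69.0 and 63.1 CPM. No marker of that list was at 0 throughout a group, and the part of this difference in the values below was not tested. Of the 4 cardiomyocyte markers tested in vitro, 3 were called higher in GFP+ and 0 in RFP+ cells (median log2 fold change of RFP+ over GFP+ -1.69). Over all genes these shares were 40.1% and 37.8%, and the counts are a description only. The endothelial and endocardial markers (10 genes) summed to 2.15 to 94.7 CPM in the in vivo GFP+ wells, with 7 of them at 0 in every such well, and to 196 to 489 CPM in the in vivo RFP+ wells.

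As the heart tube grows, myocardium along its outer curvature differentiates into chambers, while other segments keep a primary, slowly conducting character. Chamber cells switch on the natriuretic peptide genes Nppa and Nppb, genes of the sarcomere and its stress-sensing partners, and fast-conducting gap junction channels. Gap junction channels are built from connexins, each channel joining a pair of neighbouring cells, and the mixture of connexins sets how fast current spreads. Gja1 encodes Cx43, the main connexin of ventricular muscle and also common outside the heart, Gja5 encodes Cx40 of atrial, conduction and arterial cells, and Gjc1 encodes Cx45, the early connexin of the heart tube and later of the nodes.

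Nppa and Nppb lie side by side on chromosome 4 of GRCm38, Nppa at chr4:148000722-148002079 and Nppb at chr4:147985788-147987205, both on the plus strand. Ankrd1 is at chr19:36111961-36120099 on the minus strand and Smpx at chrX:157698910-157752591 on the plus strand. Gja1 is at chr10:56377330-56402513 and Gja5 at chr3:96904693-97077416, both on the plus strand, and Gjc1 is at chr11:102799579-102819700 on the minus strand. The antisense gene Gm13054 overlaps Nppa, and genes on the other strand overlap Gja5. The strand setting of the counting is not given in the sources used here, so reads of Nppa and Gja5 and of these partners may be shared.

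All 7 genes, connexin genes included, had their highest mean in the in vivo GFP+ wells. The start regions of the 4 chamber genes are shown with the letters of 6 factor motifs in capitals. The 250 bases before the RefSeq start (table build GRCm38.p6) were searched on both strands for the letters of GATA factors (AGATAA), T-box factors (GTGTGA), Nkx2-5 (CACTTG) and Tead factors (CATTCC), and for the Mef2 motif and the Srf CArG box by name. Promoter sequence was at hand for 6 of the 7 genes, and Gjc1 had no entry. Nppa is shown whole, and the others as 30 bases around the matches that fell within them.
Nppa, chr4:148000472-148000721, plus strand: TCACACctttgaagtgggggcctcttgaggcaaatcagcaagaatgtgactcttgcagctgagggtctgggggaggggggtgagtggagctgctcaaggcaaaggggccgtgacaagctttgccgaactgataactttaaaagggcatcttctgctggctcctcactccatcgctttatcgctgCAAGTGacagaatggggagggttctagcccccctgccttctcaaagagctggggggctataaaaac
Nppb, chr4:147985794-147985823, plus strand: aGGAATGcagctgataaatcagAGATAAcc
Ankrd1, chr19:36119950-36119979, minus strand: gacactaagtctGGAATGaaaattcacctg
Ankrd1, chr19:36119902-36119931, minus strand: gtgggggcagggGTGTGActtggcttccca
Ankrd1, chr19:36119874-36119903, minus strand: caggctggaagaTTATCTcacccagcccta
Smpx, chrX:157698832-157698861, plus strand: ctctAGATAAtatagCTAAAGATAGacttt

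The capitals mark a T-box match at the far end of the Nppa stretch and an Nkx2-5 match 66 bases before its start. In Nppb they mark a Tead and a GATA match, and in Ankrd1 a Tead, a T-box and a GATA match. In Smpx they mark a GATA match followed by a match to the loose Mef2 letters, whose free middle bases include a G here. A further Tead match in Ankrd1 and a further GATA match in Smpx are not shown. Gja1 held 1 GATA match and Gja5 held none of the 6 motifs. The letters are common: over 32851 promoters of the same length, AGATAA was found in 9.99%, GTGTGA in 12.3%, CACTTG in 11.6%, CATTCC in 12.6%, the Mef2 letters in 3.2% and the CArG box in 1.47%. These matches describe sequence only.

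In the embryo, Ankrd1 separated GFP+ from RFP+ cells in every well. Ankrd1 encodes an ankyrin repeat protein of the cardiac sarcomere and nucleus that responds to stretch. Its level in the GFP+ wells A12, B12, C12, D12 and E12 was 2977, 2892, 1597, 2800 and 2755 CPM, and in the RFP+ wells F12, G11, G12 and H11 it was 16.0, 105, 131 and 17.2 CPM. Every GFP+ well stood above every RFP+ well, the lowest GFP+ well being C12, and the RFP+ wells fell into a higher and a lower pair. Of the genes tested, 3.6% stood apart in this way with GFP+ higher. The log2 fold change of RFP+ over GFP+ was -5.31 (SE 0.52, adjusted p = 0.000242 by edgeR's quasi-likelihood test), and without any single well it lay between -5.83 and -4.98. Ankrd1 was the only one of the 7 genes called, against 10.1% of the 8503 genes tested in this comparison and 3.88% called higher in GFP+ cells. The genes tested were those with at least 10 counts in enough wells, and 5 of the 7 genes passed this filter, while Nppa and Gja5 did not. A call is an adjusted p under 0.1, which is the threshold used by the study.

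Nppa, which encodes atrial natriuretic peptide, was detected in some in vivo GFP+ wells and not in others. Its counts in A12, B12, C12, D12 and E12 were 0, 1771, 25, 0 and 405, which correspond to 0, 766, 31.0, 0 and 433 CPM. Among the in vivo RFP+ wells, G12 had 1 count and F12, G11 and H11 had none. Wells B12 and E12 were therefore high, C12 low, and A12 and D12 overlapped with the RFP+ wells, although 3 counts would have been 3.23 CPM in A12 and 1.40 CPM in D12. Summed over wells, the ratio of GFP+ to RFP+ was 1661, with an exact 95% counting interval of 298 to 65629. Intervals and limits of this kind cover counting error only, since the reads carry no molecular identifiers. Nppa was under the filter in the edgeR fit, was called by DESeq2 (adjusted p = 0.000618, 17.7% of 10967 genes called) and by edgeR without a filter (adjusted p = 0.00493, 13.2% of 15111 genes called), and an exact permutation test gave p = 0.238.

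Nppb and Smpx were higher in most but not all GFP+ wells of the embryo. Nppb encodes B-type natriuretic peptide, and its level in A12, B12, C12, D12 and E12 was 39.8, 220, 89.3, 0 and 85.5 CPM, against 0, 2.81, 0 and 3.58 CPM in the RFP+ wells F12, G11, G12 and H11. Thus 4 of 5 GFP+ wells stood above all RFP+ wells, and D12 had no count. Smpx, a small muscle protein of the costamere, measured 132, 298, 0, 24.7 and 98.4 CPM in the same GFP+ wells and 6.56, 7.73, 5.07 and 1.43 CPM in the RFP+ wells. Again 4 of 5 GFP+ wells were above all RFP+ wells, but here the empty well was C12.

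The log2 fold change was -5.73 for Nppb (SE 1.59, adjusted p = 0.104) and -4.42 for Smpx (SE 1.28, adjusted p = 0.108), both just outside the threshold of 0.1 in edgeR's test. Both passed the filter through the GFP+ wells in which they are high, so that their direction was set by the filter. Both genes were called by DESeq2 (adjusted p = 0.00382 and 0.00452, 17.7% of genes called) and by edgeR with DESeq2's size factors (0.0918 and 0.0949, 874 of 8503 genes called). EdgeR without a filter called both (0.0634 and 0.0703, 13.2% of genes called). So did a fit over all 4 groups (0.000435 and 0.000202), but it assumes 1 spread for all groups and called 7115 of 12655 genes. Leaving out the empty well, the only GFP+ well not above the RFP+ wells, lowered edgeR's adjusted p to 0.0231 for Nppb (D12) and 0.0142 for Smpx (C12). Without any single RFP+ well it was 0.205 to 0.243 for Nppb and 0.231 to 0.294 for Smpx. For Smpx it was 0.138 without A12 and 0.131 without E12. Nppb did not pass the filter without A12, B12, C12 or E12, nor did Smpx without B12 or D12. The exact permutation tests gave p = 0.0794 for Nppb, 0.127 for Smpx and 0.0159 for Ankrd1, which is the smallest p that the 126 splits of 5 and 4 wells allow. After adjustment over 15111 genes no gene passed 0.1 in this exact permutation test (0% called), where 2899 genes (19.2%) had an unadjusted p under 0.05, while edgeR called 858 and DESeq2 1936.

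**Figure D1:**
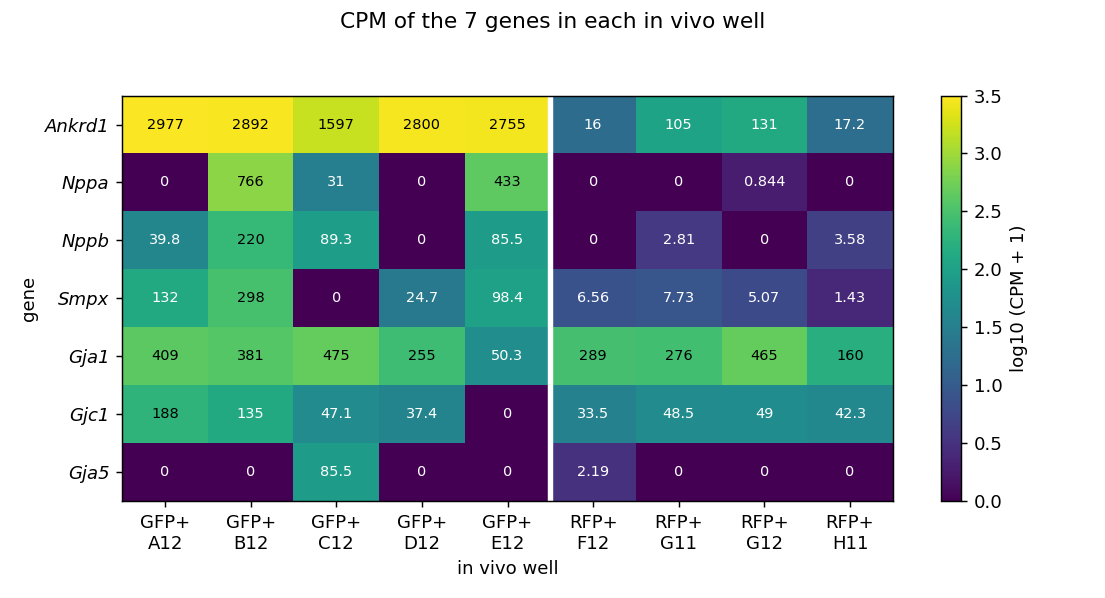
CPM of the 7 genes (rows) in each of the 5 GFP+ and 4 RFP+ in vivo wells (columns), with the CPM printed in each cell and the colour giving log10 (CPM + 1). Ankrd1 is high in all GFP+ wells, Nppa is high in B12 and E12, and Gja5 has its only large value, 85.5 CPM, in C12.

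The 5 in vivo GFP+ wells, each with counts of 6189 to 8302 genes, differed in which chamber genes were detected. All 4 chamber genes had counts in 2 of the 5 GFP+ wells (B12 and E12), 3 of them in 2 wells and 2 of them in 1 well, D12, where Ankrd1 and Smpx were detected but neither natriuretic peptide. Per kilobase of exon, the mean level in the in vivo GFP+ wells was 902 ± 197 CPM for Ankrd1 (SD, n = 5), 284 ± 397 for Nppa, 111 ± 106 for Nppb and 48.7 ± 51.8 for Smpx. The SD was 21.9% of the mean for Ankrd1 and 140% for Nppa, so that only Ankrd1 had a well-to-well spread clearly under its mean. In the in vivo RFP+ wells the mean levels per kilobase were 23.3 ± 20.6 CPM for Ankrd1 (SD, n = 4), 2.05 ± 2.40 for Nppb, 2.28 ± 1.20 for Smpx and 0.244 ± 0.488 for Nppa. Ankrd1 had the highest mean of the 4 genes in both in vivo groups.

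In the spheroids, all 4 chamber genes were at or near 0 in both populations, and Nppb was the one most often seen. Nppb had counts in 24 of 38 GFP+ wells (63.2%, exact 95% interval 46 to 78.2) and in 8 of 46 RFP+ wells (17.4%, 7.82 to 31.4). Its lowest, median and highest levels were 0, 1.16 and 15.9 CPM in GFP+ wells and 0, 0 and 3.48 CPM in RFP+ wells. The groups overlapped at 0, but 11 GFP+ wells stood above every RFP+ well. The mean was 2.87 ± 3.91 CPM in GFP+ wells (SD, n = 38) and 0.347 ± 0.906 in RFP+ wells (SD, n = 46). A permutation test on log2 CPM with 100000 resamples gave p = 2e-05, the smallest it can give, and 7.94e-05 after adjustment over 21827 genes, of which 49.6% were called.

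Nppa had counts in 16 GFP+ wells and 10 RFP+ wells of the spheroids, with at most 5 counts in any well. Its median was 0 in both, its highest level was 3.32 CPM in GFP+ and 3.08 CPM in RFP+ wells, and the ranges overlapped almost wholly. Ankrd1 had counts in 10 GFP+ wells (highest 4.81 CPM) and in 4 RFP+ wells (highest 3.67 CPM), again with both medians at 0. Smpx had counts in 5 GFP+ wells (highest 4.68 CPM) and in 1 RFP+ well, which had 3 counts (1.57 CPM). Summed over wells, the GFP+ to RFP+ ratio of Smpx was 11.5 with an exact 95% counting interval of 3.62 to 58.8.

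All 4 genes were thus low rather than shown to be absent, as 3 counts in a well without any stood for 0.551 to 6.77 CPM in the RFP+ wells. The permutation test gave adjusted p = 0.0428 for Nppa, 0.0529 for Ankrd1 and 0.069 for Smpx, with differences in mean log2 CPM of RFP+ minus GFP+ of -0.25, -0.27 and -0.22. The 4 chamber genes did not pass the filter in edgeR's in vitro comparison. Without the filter edgeR called all 7 genes, where 60.1% of 21827 genes were called, and DESeq2 called Nppb (adjusted p = 7.25e-07) but neither Nppa (0.118), Ankrd1 (0.111) nor Smpx (0.489), where it called 65.8% of 16322 genes. No in vitro well had counts of all 4 chamber genes. At least 1 of them had counts in all but 4 GFP+ wells, while 28 of the 46 RFP+ wells had none.

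**Figure D2:**
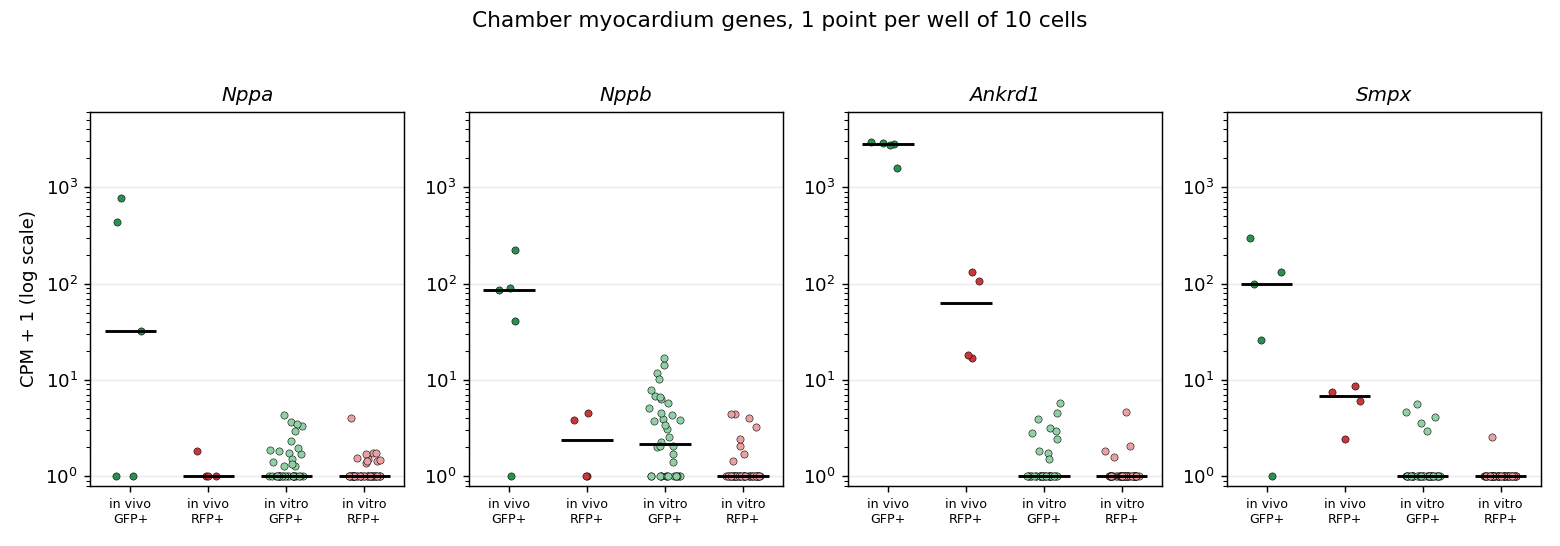
CPM + 1 on a log scale for each chamber gene, 1 point per well and 1 column per group, with a bar at the median. The in vivo GFP+ wells of Ankrd1 lie between 1597 and 2977 CPM, while no in vitro well of any of the 4 genes exceeds 15.9 CPM.

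All 4 chamber genes were lower in spheroid than in embryo GFP+ cells. Source, stage and plate column go together within each population, so their effects cannot be told apart in any comparison between sources. For GFP+ cells the mean of Ankrd1 was 2604 ± 570 CPM in vivo (SD, n = 5) and 0.55 ± 1.15 CPM in vitro (SD, n = 38), and the log2 fold change of in vitro over in vivo was -11.87 (SE 0.47, adjusted p = 2.63e-34 by edgeR's test). All 5 in vivo wells stood above all 38 in vitro wells, as did 2.72% of the genes tested. Nppb fell from 87.0 ± 83.0 to 2.87 ± 3.91 CPM, a log2 fold change of -4.70 (SE 0.82, adjusted p = 8.67e-09). Ankrd1 and Nppb passed the filter here through the in vivo wells in which they are high, so that their direction was set by the filter. With Gjc1, 3 of the 4 genes that passed were called higher in vivo, beside 68% of 11822 genes called, 19.7% higher in vivo and 48.3% higher in vitro. DESeq2 and edgeR without a filter each called 6 of the 7 genes here, where they called 64.5% and 55.8% of genes. The median log2 fold change of all genes in this comparison was 0.67 with TMM scaling and 0.22 with DESeq2's size factors, and relative to that median Nppb stood at -5.36 and -5.35 and Ankrd1 at -12.53 and -12.54.

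Nppa and Smpx were under the filter in the same comparison. By exact permutation over all 962598 splits, the adjusted p over 21087 genes was 0.00699 for Nppa, 0.000654 for Smpx, 0.00159 for Nppb and 6.09e-05 for Ankrd1, where 40.2% of genes were called. In 3 of 5 in vivo GFP+ wells Nppa was above all in vitro GFP+ wells, and for Smpx and Nppb this held in 4 of 5. The 2 empty wells for Nppa, D12 for Nppb and C12 for Smpx lay inside the in vitro range.

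RFP+ cells showed the same direction for Ankrd1 and Smpx. Ankrd1 averaged 67.4 ± 59.5 CPM in vivo (SD, n = 4) and 0.133 ± 0.573 CPM in vitro (SD, n = 46), a log2 fold change of -8.71 (SE 0.74, adjusted p = 1.63e-26), and all 4 in vivo wells were above all in vitro wells. Among the genes tested, 2.45% did not overlap in this direction. Of the 3 genes that passed the filter here Ankrd1 and Gjc1 were called, where edgeR's test called 42.6% of 11147 genes, 20.1% higher in vivo and 22.5% higher in vitro. Ankrd1 passed it through the in vivo wells in which it is high, with at most 2 counts in any in vitro RFP+ well. Its direction was therefore set by the filter. Smpx averaged 5.20 ± 2.74 CPM in vivo and 0.0342 ± 0.232 CPM in vitro, with adjusted p = 0.000559 by exact permutation over 230300 splits, where 21.1% of 20426 genes were called. Nppa and Nppb were low in RFP+ cells of both sources, with adjusted p = 0.933 and 0.262. The GFP+ and RFP+ changes of 3 of these genes were compared in a joint fit with 1 spread for the 4 groups. The RFP+ change was less negative by 3.24 for Ankrd1 (adjusted p = 0.0563), 2.72 for Nppb (0.128) and 2.2 for Smpx (0.623) on the log2 scale, where 54.4% of 12655 genes were called. In vitro GFP+ and RFP+ means were only 0.55 and 0.133 CPM for Ankrd1, 2.87 and 0.347 for Nppb and 0.421 and 0.0342 for Smpx. With values so near 0, the comparison largely repeats the in vivo difference between GFP+ and RFP+ cells. It therefore cannot decide whether the changes differ.

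Gja1 was the gene whose means differed least among the 4 groups. Its level in the in vivo GFP+ wells A12, B12, C12, D12 and E12 was 409, 381, 475, 255 and 50.3 CPM, and in the in vivo RFP+ wells F12, G11, G12 and H11 it was 289, 276, 465 and 160 CPM. The 2 in vivo groups overlapped throughout, and the lowest well was E12. In vitro, the lowest, median and highest levels were 73.3, 247 and 398 CPM in GFP+ wells and 192, 276 and 403 CPM in RFP+ wells, and the GFP+ minimum came from the shallow well C9. Every one of the 93 wells had Gja1 counts.

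The order of the means was in vivo GFP+ (314 ± 168 CPM, SD, n = 5), in vivo RFP+ (298 ± 126, n = 4), in vitro RFP+ (278 ± 43.8, n = 46) and in vitro GFP+ (250 ± 62.3, n = 38). No 2 neighbours in that order differed by more than their SD. In edgeR's tests the log2 fold change of RFP+ over GFP+ was -0.12 in vivo (SE 0.52, adjusted p = 0.977) and 0.09 in vitro (SE 0.06, adjusted p = 0.135), and that of in vitro over in vivo was -0.15 in GFP+ cells (SE 0.21, adjusted p = 0.545) and -0.11 in RFP+ cells (SE 0.13, adjusted p = 0.535).

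The small in vitro difference in Gja1 depended on the test. The permutation test gave a difference of 0.18 in mean log2 CPM, RFP+ higher, with adjusted p = 0.0217, and edgeR called Gja1 at 0.0992 without well C9 and at 0.0225 without a filter. The GFP+ comparison between sources depended on scaling: with DESeq2's size factors the log2 fold change was -0.62 (adjusted p = 0.00584), and relative to the median of all genes it was -0.82 with TMM and -0.83 with DESeq2's size factors. Without well C12 its sign turned, to 0.01, and without E12 it was -0.48 and called (adjusted p = 0.0107). In RFP+ cells the comparison between sources turned to 0.19 without G12 (adjusted p = 0.317) and was -0.32 and called without H11 (adjusted p = 0.058).

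Gjc1 was the only connexin gene of the 3 called between the in vitro populations. In vitro, its lowest, median and highest levels were 0, 31.5 and 58.2 CPM in GFP+ wells and 32.7, 60.1 and 113 CPM in RFP+ wells. The single well at 0 was C9, where 3 counts would have been 220 CPM, and the next lowest GFP+ well had 8.65 CPM. The ranges overlapped, but 26 of 46 RFP+ wells stood above every GFP+ well. The mean was 30.9 ± 13.6 CPM in GFP+ wells (SD, n = 38) and 59.7 ± 13.6 CPM in RFP+ wells (SD, n = 46), and the log2 fold change of RFP+ over GFP+ was 0.87 (SE 0.10, adjusted p = 1.07e-12). In this comparison 77.9% of the 9940 genes tested were called, 37.8% higher in RFP+ cells, so a call is common. RFP+ wells filled plate columns 1 to 6 and GFP+ wells columns 7 to 11, so an effect of the column and one of the cells cannot be told apart.

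In the embryo, Gjc1 measured 188, 135, 47.1, 37.4 and 0 CPM in the GFP+ wells A12, B12, C12, D12 and E12 and 33.5, 48.5, 49.0 and 42.3 CPM in the RFP+ wells F12, G11, G12 and H11. Wells A12 and B12 were above all RFP+ wells, D12 and C12 were within their range and E12 was below it, so the groups overlapped. The log2 fold change was -0.93 (SE 1.17, adjusted p = 0.869 by edgeR's test), while the difference in mean log2 CPM was 0.26 with RFP+ higher, so that the sign in vivo depended on the measure. The difference between the in vitro and in vivo fold changes was 1.80 for Gjc1 (SE 1.18, adjusted p = 0.682) and 0.21 for Gja1 (SE 0.52, adjusted p = 0.963), where 5.68% of 8182 genes were called by this test with 7 degrees of freedom. In a joint fit with 1 spread for all groups, the interaction of Gjc1 had adjusted p = 0.00041, where 6889 of 12655 genes were called.

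Between sources, Gjc1 was lower in vitro in GFP+ cells and higher in vitro in RFP+ cells. The log2 fold change of in vitro over in vivo was -1.21 in GFP+ cells (SE 0.41, adjusted p = 0.00451) and 0.44 in RFP+ cells (SE 0.18, adjusted p = 0.0483). The first had adjusted p = 0.116 without well A12, and the second 0.211 without F12 and 0.106 without H11. The means ran in the order in vivo GFP+ (81.5 ± 77.5 CPM, SD, n = 5), in vitro RFP+ (59.7 ± 13.6), in vivo RFP+ (43.3 ± 7.21, n = 4) and in vitro GFP+. The first pair in that order differed by less than the in vivo GFP+ spread, and the exact permutation tests gave adjusted p = 0.872 for GFP+ and 0.0584 for RFP+ cells between sources.

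Gja5 was not detected in most wells. In the in vivo GFP+ group, C12 had 69 counts (85.5 CPM) and the other 4 wells had none, and in the in vivo RFP+ group, F12 had 3 counts (2.19 CPM) and the other 3 wells none. In vitro it had counts in 5 of 38 GFP+ wells, with at most 2 counts, and in 10 of 46 RFP+ wells, with at most 4. Its highest in vitro levels were 1.05 and 3.00 CPM. Well C12, the well with Gja5, was also the one without Smpx and with the lowest Ankrd1 of its group. The summed GFP+ to RFP+ ratio in vivo was 17.4 with an exact 95% counting interval of 5.70 to 86.2, but it rests on that 1 well, and the permutation tests gave adjusted p = 1 in vivo and 0.249 in vitro. Per kilobase of exon, the in vivo GFP+ means were 30.6 ± 16.3 CPM for Gja1 (SD, n = 5), 16.3 ± 15.5 for Gjc1 and 2.98 ± 6.66 for Gja5, so that Gja1 led the 3 connexin genes there and Gja5 came last, with a spread over its mean.

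**Figure D3:**
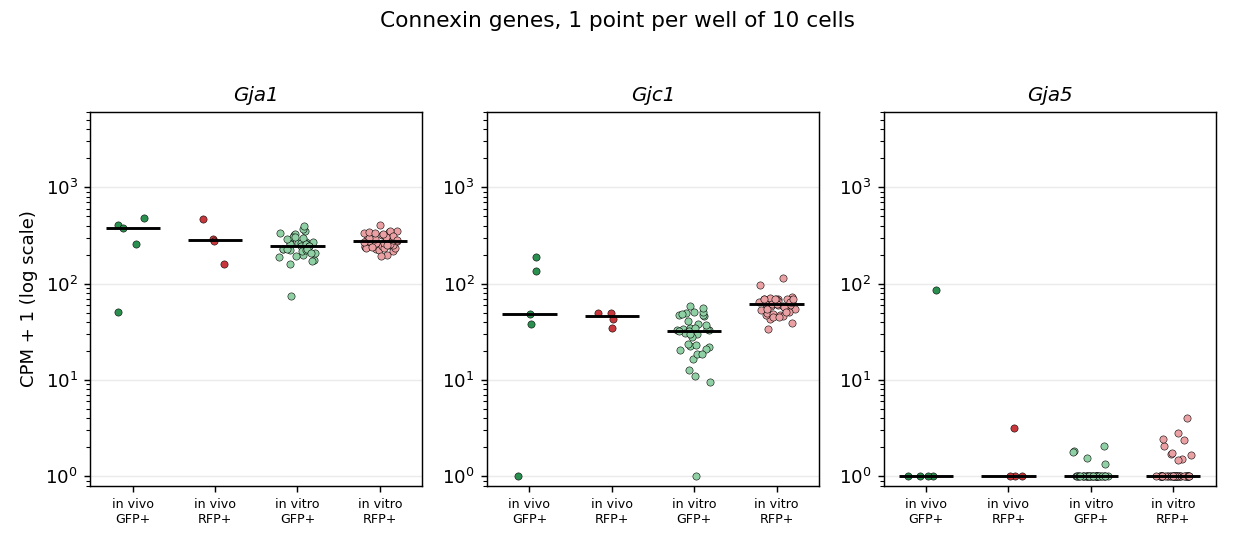
CPM + 1 on a log scale for Gja1, Gjc1 and Gja5, 1 point per well and 1 column per group, with a bar at the median. Gja1 lies near the same level in all 4 groups (medians 381, 283, 247 and 276 CPM), Gjc1 is lower in in vitro GFP+ than in vitro RFP+ wells, and Gja5 is at 0 in most wells.

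**Figure D4:**
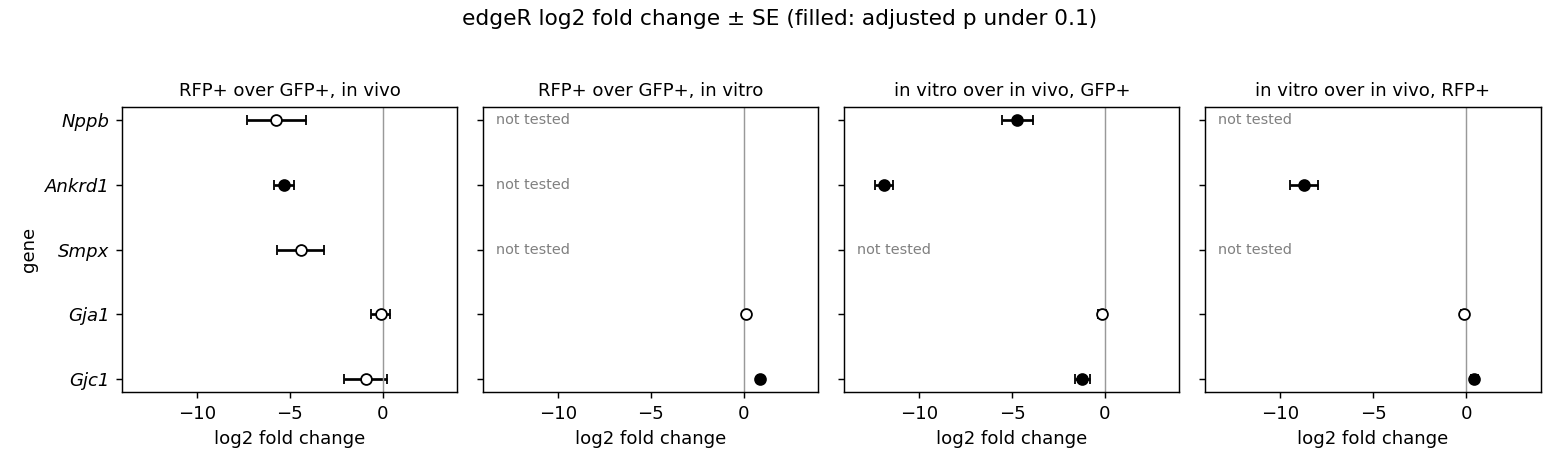
Log2 fold change (x axis) with its SE for the 5 genes (y axis) that passed the filter in at least 1 of 4 comparisons, 1 panel per comparison, with filled points for adjusted p under 0.1. Nppb, Ankrd1 and Smpx lie below 0 in the panels where they passed the filter, which they did through the wells in which they are high, and Gja1 lies near 0 in all 4 panels.

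The other genes of the chamber programme gave the context for these values in the embryo. Of 26 further chamber genes, 16 were tested in vivo, and 11 of them were higher in GFP+ cells and none higher in RFP+ cells, with a median log2 fold change of -3.90, beside 3.88% and 6.21% over all genes and a median of 0.09. These counts are a description only, since some of the genes passed the filter through the GFP+ wells alone, such as Cox6a2, a subunit of cytochrome oxidase with no count in any in vivo RFP+ well. Myl7, the atrial regulatory light chain of myosin, had -3.95 (adjusted p = 3.69e-05) and Fhl2, a LIM domain protein, -2.47 (adjusted p = 0.067). In vitro 6 of them were tested, of which GFP+ cells had 3 higher and RFP+ cells 3, beside 40.1% and 37.8% over all genes. Myl7 (-1.44) and Fhl2 (-0.94) were on the GFP+ side, while Hey1, a Notch target (1.22), and Hopx, a homeodomain-only protein (1.11), were higher in RFP+ cells. Chosen after its values were seen, Bmp10, a growth factor of trabecular myocardium, had 36 to 119 CPM in the in vivo GFP+ wells and no count in the 37 GFP+ and 46 RFP+ in vitro wells above 100000 reads.

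Of 22 regulators of chamber genes, 20 were in the table under the symbols used. In vivo, 5 of 16 tested were higher in GFP+ cells and none in RFP+ cells (median log2 fold change -1.56), beside 3.88% and 6.21% of all genes. In vitro 8 of 12 were called on the GFP+ side and 2 on the RFP+ side (median -0.83, beside -0.02 over all genes), where 40.1% and 37.8% of all genes were called. Hand1 (-4.39), Hand2 (-4.24), Msx2 (-3.57) and Isl1 (-1.40) had the smallest adjusted p, all in vitro, at 2.19e-19, 3.09e-24, 2.92e-19 and 2.85e-18. Hand2 did not pass the filter in the comparison of RFP+ cells between sources. In vitro it therefore passed through the GFP+ wells in which it is high, so that its direction was set by the filter. The same may hold for Hand1 and Msx2. Hand1 and Hand2 are bHLH factors of ventricle growth, Msx2 a homeobox repressor and Isl1 a LIM homeobox factor of cardiac progenitors. Also chosen after values were seen, Tbx5 and Tbx20, T-box factors of the early myocardium, differed in vivo by -7.80 and -7.32 (adjusted p = 0.00122 and 2.06e-05). Both may have passed the filter only through the GFP+ wells in which they are high, in which case their direction was set by the filter. Tbx5 had a median of 152 CPM in in vivo GFP+ wells and of 0 in in vitro GFP+ wells.

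Of 10 genes that process or receive natriuretic peptides, 5 were tested in vivo, with 1 higher in each population, beside 3.88% of all genes higher in GFP+ and 6.21% in RFP+ cells. Prkg1, the kinase activated by the second messenger cGMP, was higher in GFP+ cells (-3.77, adjusted p = 0.0826), and Pde5a, which degrades cGMP, was higher in RFP+ cells (adjusted p = 0.0133), at least 62.3-fold over the limit that 3 counts summed over the in vivo GFP+ wells set, where it had no count. Pde5a passed the filter through the RFP+ wells alone, so its direction was set by the filter. Fewer genes were also detected in the in vivo GFP+ wells than in the RFP+ wells. In vitro 4 were tested, of which 2 were called on the GFP+ side and 1 on the RFP+ side, near the 40.1% and 37.8% over all genes. The clearance receptor Npr3 was higher in RFP+ cells there (1.96, adjusted p = 3.15e-13), and Prkg1 and Pde5a were slightly higher in GFP+ cells (-0.47 and -0.26).

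None of 17 other connexins was detected in the embryonic GFP+ wells, which had counts of 6189 to 8302 genes each. In vitro, Gjb5, an epithelial connexin, was the only one tested and was higher in GFP+ cells (log2 fold change -3.15, adjusted p = 1.40e-20). Its median in GFP+ wells was 40.5 CPM (range 12.9 to 81.5), beside a median of 2.67 CPM in RFP+ wells. Gjb5 thus passed the filter through the GFP+ wells in which it is high, so that its direction was set by the filter. Markers of surface and neural ectoderm (8 genes) had summed levels of 1659 to 6378 CPM in in vitro GFP+ wells (median 2978) and 50.9 to 1067 CPM in RFP+ wells (median 442). None of the 8 was at 0 throughout either group. Of the 4 tested, 3 were called higher in GFP+ cells and 1 higher in RFP+ cells. The sums of endoderm markers (10 genes, medians 290 and 107 CPM) and pluripotency markers (9 genes, medians 226 and 52.9 CPM) were higher in in vitro GFP+ wells too. Of 3 endoderm markers tested, 2 were called higher in GFP+ and 1 in RFP+ cells, and of 7 pluripotency markers 5 and 0. Over all genes these shares were 40.1% and 37.8%. Whether such cells were present, or had a part in the values of Gjb5 and of the epithelial adhesion genes below, was not tested. Of the pannexins, which form related channels, Panx1 alone was tested, and it was slightly higher in GFP+ cells in vitro (-0.49, adjusted p = 0.0174).

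The intercalated disc holds connexins together with adhesion proteins, and 17 genes were listed for it. In vivo, 6 of 15 tested were called on the GFP+ side and none on the RFP+ side (median -1.55), beside 3.88% and 6.21% of all genes. In vitro 10 of 15 were called on the GFP+ side and 4 on the RFP+ side (median -0.29), beside 40.1% and 37.8%. Jup, plakoglobin (-2.89), Ctnna1, alpha-catenin (-0.99), and Dsp, desmoplakin (-2.36), were higher in in vitro GFP+ cells, and Dbn1, drebrin (1.37), was higher in in vitro RFP+ cells. Only Ctnna1 of these was also called in vivo (-1.36, adjusted p = 0.0287). Chosen after its values were seen, Cdh2, N-cadherin, the adhesion molecule of muscle discs, was higher in GFP+ cells in vivo (-3.46, adjusted p = 0.00422) and higher in RFP+ cells in vitro (1.21, adjusted p = 3.02e-21).

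Across the 37 in vitro GFP+ wells above 100000 reads, the genes most like Nppb in rank among 10430 genes of at least 5 CPM were D330050I16Rik, Ddx56 and Trrap (Spearman's rho 0.593, 0.582 and 0.571, Pearson's r 0.59, 0.528 and 0.534). For Gja1 they were Ormdl2, Cdc42ep4 and Hmgn5 (rho 0.592, 0.588 and 0.588) and for Gjc1 Zbed3, 2700081O15Rik and Arid3a (rho 0.588, 0.584 and 0.562). These are the highest of 10430 values for each gene, the wells share a plate, and the values of a well share its depth, so they are a description. The rho of Nppb with the summed cardiomyocyte markers was -0.206 over the same wells, and with the total count 0.133. For Gja1 these were 0.155 and 0.189, and for Gjc1 -0.0917 and 0.165.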

How the data were processed

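RNA of 10 sorted cells per well was sequenced for 93 wells. Per the labels and the study's methods, the authors removed adapters and bases under quality 35 with Trimmomatic 0.36, kept reads of at least 36 bases, aligned them with HISAT2 2.0.4 (mm10) and assigned them with featureCounts 1.5.2, and the deposited values are raw counts per gene symbol. The gene annotation and strand setting of that step are not given in the sources used here.

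Groups were taken from the sample labels. Counts were compared in R 4.3.3 with edgeR 4.0.16 (TMM, filterByExpr with minimum count 10, minimum total 15 and proportion 0.7, quasi-likelihood F-test, Benjamini-Hochberg adjustment over all genes tested). The RFP+ and GFP+ populations were compared within each source and each population between sources, and the difference of the log2 fold changes was tested over its own standard errors. CPM use TMM over all 93 wells. Two-sided permutation tests on mean log2 CPM (prior count 2) were run for every gene with a count in the groups, exactly or with 100000 resamples. Alternatives were DESeq2 1.42.0, other scalings, no filter, a threshold of 0.05, one fit of the 4 groups, plate rows as a term, each in vivo well or C9 left out, and wells summed. The RFP+ wells of plate columns 3 and 4 in 7 rows resembled each other (chi-square per degree of freedom 1.37 to 2.39, against 2.99 to 12.1 between other wells of a row) but differed beyond sampling noise, so they were kept apart. Gene positions and exon lengths are from GENCODE M21, promoters from RefSeq. Fits and permutation tests were checked on simulated data.

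The genes and gene lists were chosen with earlier results of these data known. Named list genes are those called in vivo or in vitro, at most 4 per list by adjusted p. The like genes are the 3 of highest rho for each gene with counts in at least 50% of the in vitro GFP+ wells above 100000 reads.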

Additional observations from a re-analysis of the deposited data

Results flagged for a closer look

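In 4 of 14 gene and group combinations of the in vivo wells, 1 well stood apart from the others by Dixon's criterion at 95% (about 1 group in 20 by chance, a rate that holds for no case in which all other wells are at 0, since any count then stands apart, as in 3 of the 4). Well C12 of the in vivo GFP+ group had Ankrd1 at 1597 CPM where the median of the other 4 wells was 2846 CPM, and it held Gja5 at 85.5 CPM where the other 4 wells had none. In the in vivo RFP+ group, F12 had Gja5 at 2.19 CPM (3 counts) and G12 had Nppa at 0.844 CPM (1 count), each with the other 3 wells at 0, so that these 2 cases rest on 1 to 3 reads.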

How the results depend on the processing

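Of the 7 genes, the in vivo RFP+ versus GFP+ comparison called 1 as reported, 4 with DESeq2, 3 with DESeq2's size factors, 4 without a filter, 4 in the fit over 4 groups and 1 to 2 without 1 well. The number of all genes called was 858 of 8503 as reported, 1936 of 10967 with DESeq2, 874 of 8503 with DESeq2's size factors, 2000 of 15111 without a filter and 7115 of 12655 in the fit over 4 groups. Without 1 well it ran from 613 of 8743 to 1044 of 8360. In vitro, 1 of the 7 was called as reported, 2 with DESeq2, 7 without a filter, 4 in the fit over 4 groups and 2 without well C9. The shares of all genes called were 77.9%, 65.8%, 60.1%, 8804 of 12655 and 7789 of 9990 in that order, and 7747 genes became 13109 without a filter. GFP+ cells between sources had 3 of the 7 called as reported, 6 with DESeq2, 6 without a filter and 5 in the fit over 4 groups. Of all genes, 68%, 64.5%, 55.8% and 9480 of 12655 were called there in that order. RFP+ cells between sources had 2 called as reported, beside 42.6% of all genes, and 1 to 2 without 1 well. The difference between sources was called for 465 genes as reported, 6889 with the interaction in the joint fit and 90 to 587 without 1 well, where leaving out the in vivo RFP+ wells F12, G11 and H11 gave 256, 90 and 190. The cause of these differences was not tested. The values of Gja1 crossed 0 when 1 well was left out, with calls gained without E12 (GFP+) and H11 (RFP+) between sources, running from -0.40 to 0.11 in vivo, from -0.48 to 0.013 and from -0.32 to 0.19 between sources in GFP+ and RFP+ cells, and from -0.015 to 0.49 for the difference. With total counts its permutation difference between sources in RFP+ cells was 0.016. All 4 chamber genes kept their direction in every fit that tested them. Where they passed the filter only through the group in which they are high, that direction was set by the filter and adds no support. The counts of members called by permutation did not change with the prior count or scaling. Well names are not shared between groups, and with plate row as a term the in vitro comparison called 7754 genes and 1 of the 7. Depth limits Nppa, Ankrd1 and Smpx in vitro and Gja5 throughout, where most wells have no count.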
